A study of Mus musculus with 12 samples.

Results

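The replication-dependent histone genes of the mouse were taken as all protein-coding genes whose GENCODE M21 symbol begins with Hist1h, Hist2h, Hist3h or Hist4. There were 67 of them among 53715 gene identifiers: 6 encode the linker histone H1, and 18, 18, 12 and 13 encode the core histones H2A, H2B, H3 and H4. In the annotation 54 lie in the Hist1 cluster on chromosome 13, 10 in the Hist2 cluster on chromosome 3, 2 in the Hist3 cluster on chromosome 11, and 1, Hist4h4, on chromosome 6.

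Core histones form the protein spool of the nucleosome, and H1 binds the DNA between nucleosomes. Replication-dependent histone genes are transcribed mainly in S phase, when new DNA is packaged, with the help of NPAT at the histone locus body. Their mRNAs have no introns in most cases and end in a conserved stem-loop, bound by the stem-loop binding protein SLBP, in place of a poly(A) tail. Libraries made from total RNA can capture such RNAs.

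The RNA came from 12 libraries of mouse pancreatic ductal adenocarcinoma organoids, epithelial tumour cultures grown in Matrigel, of 2 lines named mT6 and mT69a. All groups shared the C57/Bl6 strain and the labelled genotype KrasLSLG12D/+, Trp53LSLR172H/LOH, Pdx1-Cre, in which Pdx1-Cre switches on the mutant alleles in the pancreatic lineage (the series' design text writes Trp53LSLR172H/+). In each line the controls were a clone knocked out at Rosa26 and given an empty vector, the knockouts a clone knocked out at Spdef with that vector, and the group labelled re-expression carried an SPDEF vector in the Spdef knockout. Each of the 6 groups had 2 libraries, numbered 1 and 2. Each line was represented by 1 Spdef-knockout clone label, so the knockout and the clone cannot be told apart. Nothing in the labels states that libraries of 1 group were grown as separate cultures, so p-values measure the spread between these libraries, which may be technical.

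Spdef, the gene targeted, was counted 30 and 29 times in the mT6 controls, 0 and 2 times in the mT6 knockouts, and 1 and 0 times with the vector. The mT69a controls had 2 and 4 such reads, the knockouts 2 and 0, and the libraries with the vector 2 and 0. Counts of mouse Spdef therefore separated control from knockout in mT6, were near 0 in every mT69a library, and did not rise in the libraries labelled re-expression. The labels do not give the sequence the vector carries, so these counts do not check that label. Libraries held 9094295 to 28903831 counts. The mitochondrial share of counts was 12.7% to 15.5% for replicate number 1 and 18.6% to 27.1% for number 2. Epithelial markers summed to 3844 to 7073 CPM (read counts scaled to library size, with TMM factors), while 10 fibroblast markers summed to 0 to 0.761 CPM, 10 immune markers to 2.35 to 12.7 CPM and 8 endothelial markers to 0.38 to 3.32 CPM.

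The stem-loops are shown first, because they set these RNAs apart from the rest of the transcriptome. The search was for a stem-loop made of GGC, any base, CTTTT, any base, AG, any base and GCC in direct succession, in the annotated transcripts and on the sense strand. It matched 42 of the 67 histone genes after the stop codon. Searched over the whole transcript, it matched 47 of all 55450 annotated genes (0.0848%). The matches began 21 to 58 bases after the stop codon, with a median of 31. Among the 42 genes the motif came in 5 forms, which differed in 1 base pair of the stem and in the last base of the loop. These are the bases the search left free, so matches could differ nowhere else. Capitals mark the stem-loop in these examples, which are GRCm38.p6 transcript sequences with T for U.
Hist1h2bg: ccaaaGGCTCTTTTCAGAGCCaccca
Hist2h2ac: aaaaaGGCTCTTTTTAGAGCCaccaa
Hist1h3c: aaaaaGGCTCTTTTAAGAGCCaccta
Hist1h4h: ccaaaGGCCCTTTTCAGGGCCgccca
Hist2h4: ctaacGGCCCTTTTTAGGGCCaacca
Hist1h2bg shows the form found in 26 genes, from H1, H2A, H2B and H3, and Hist1h4h the form of 7 H4 genes. The A-loop form of Hist1h3c occurred in 6 genes, the T-loop form of Hist2h4 in 2 H4 genes, and that of Hist2h2ac in 1. The Hist1h2bg site lies at chr13:23571838-23571863 on the plus strand, the Hist2h2ac site at chr3:96220413-96220438 on the minus strand, and the Hist2h4 site at chr3:96262934-96262959 on the minus strand. The Hist1h3c site lies at chr13:23745042-23745067 on the minus strand and the Hist1h4h site at chr13:23531453-23531478 on the plus strand. Of the 25 genes without a match, 17 have annotated transcripts that end under 60 bases after the stop codon, so the place where the motif would lie is outside the annotated transcript or nearly so. The poly(A) signal AATAAA was present after the stop codon in 19 histone genes, 13 of which also held the stem-loop. For Hist1h2bp, AATAAA and the stem-loop lay in different annotated transcripts. Hist2h2be and Hist1h2bc, both H2B genes with long annotated 3′ ends, had the AATAAA and no match to the stem-loop.

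H2A and H2B genes are often arranged head to head, and 12 such pairs lay under 500 bases apart, with 175 to 305 bases between the annotated genes. All 12 joined an H2A gene to an H2B gene. The stretches between the genes of 2 pairs are shown because the genes of one pair had the same sign in the comparison of the lines and those of the other had opposite signs. Both are GRCm38.p6 plus-strand sequences from RefSeq promoter windows, and they read, up to the first start in either annotation, from the H2A gene on the left to the H2B gene on the right. Capitals mark the CCAAT box, searched by those 5 letters. They also mark the octamer known from H2B promoters, which reads ATTTGCAT. The third motif marked is the TATA box, searched as TATAAA, and each motif was searched on both strands with overlaps counted.
Hist1h2ae to Hist1h2bg: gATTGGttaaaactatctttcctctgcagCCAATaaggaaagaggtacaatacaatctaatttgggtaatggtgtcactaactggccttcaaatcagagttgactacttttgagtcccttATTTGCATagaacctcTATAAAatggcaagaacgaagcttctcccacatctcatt
Hist2h2ac to Hist2h2be: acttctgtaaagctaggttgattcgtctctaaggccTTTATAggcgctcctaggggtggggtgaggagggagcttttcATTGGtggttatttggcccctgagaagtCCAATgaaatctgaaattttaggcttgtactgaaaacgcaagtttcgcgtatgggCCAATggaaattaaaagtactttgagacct
The first spans chr13:23571221-23571395 and held 2 CCAAT matches, 1 octamer and 1 TATAAA. The second spans chr3:96220881-96221071 and held 3 CCAAT matches, 1 TATAAA on the minus strand and no octamer. Promoter windows were matched for 62 of the 67 genes, 5 were not matched, and the 250 bases before each RefSeq start were searched. The octamer lay in 38.9% of 18 H2A and 37.5% of 16 H2B windows, in none of the 6 H1, 10 H3 or 12 H4 windows, and in 1.6% of all 32851 windows. CCAAT lay in all 6 H1, 18 H2A and 16 H2B windows, in 80% of H3 and 25% of H4 windows, and in 33.8% of all windows. TATAAA lay in 66.7% of H1, 38.9% of H2A, 50% of H2B, 40% of H3 and 50% of H4 windows, against 12.4% of all. Paired H2A and H2B genes share much of the same window, so these shares are not independent.

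Histone genes of a family are close copies, which limits what a single gene's count can show. Of 59 genes with another member of the same family and coding length, 49 were over 95% identical in coding sequence to their nearest relative, with a median of 98.7%. In 5 pairs the coding sequences were identical: Hist1h2ao with Hist1h2ap, Hist2h2aa1 with Hist2h2aa2, Hist1h2bq with Hist1h2br, Hist2h3c1 with Hist2h3c2, and Hist1h4m with Hist1h4n. The authors' estimated counts divide reads that fit several genes, and 89.5% of the non-zero histone values were not whole (tolerance 0.005) against 25.7% over all genes. Hist1h2br ran from 0 to 31.8 CPM over the 12 libraries and its identical partner Hist1h2bq from 68.1 to 138 CPM, with a sum of 68.6 to 170 CPM. Hist1h2ao ran from 0 to 9.66 CPM beside 107 to 281 CPM of Hist1h2ap. Values of single genes are thus uncertain, and sums over all members and medians by family are also given.

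Histone RNA was abundant in every library. Summed over the 67 genes, TPM (a level per transcript length, scaled to the same total in every library) were 10369 and 10142 in the mT6 controls, 8906 and 8125 in the mT6 knockouts, and 10111 and 6718 in the mT6 re-expression libraries. In mT69a they were 18750 and 12228 in the controls, 14536 and 13782 in the knockouts and 14253 and 9633 with the vector. The highest mT6 library thus lay above the lowest mT69a library on this scale. Between 0.672% and 1.88% of all TPM came from these genes. By family the median of the mean TPM per gene was 145 for H1, 110 for H2A, 130 for H2B, 170 for H3 and 193 for H4. The core-to-linker ratio of summed TPM, which depends on the annotated lengths, ran from 11.2 to 15.6 in mT6 and from 14.8 to 17.1 in mT69a.

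The highest single members by mean TPM were Hist2h2aa2 at 614 and Hist1h2ap at 585 in the H2A family, followed by Hist1h2ai at 284. Among H4 genes they were Hist1h4m at 530, Hist1h4h at 479 and Hist1h4b at 370, and among H2B genes Hist2h2bb at 442, Hist1h2bk at 345 and Hist1h2bg at 320. The H3 genes ran from 1.62 to 237 and were led by Hist1h3b at 237, Hist1h3i at 221 and Hist1h3h at 207. Hist1h1b, Hist1h1c and Hist1h1a led the H1 genes at 231, 172 and 145. TPM depends on the annotated length, which was 743 bases for Hist1h1b and 7425 for Hist1h1d, and CPM gave another order. On mean CPM in the mT6 controls, Hist1h1e (223), Hist1h1c (204) and Hist1h1d (177) were above Hist1h1b (116) and Hist1h1a (81.8). The small clusters were low on TPM, at 17.1 for Hist3h2ba, 25.2 for Hist3h2a and 12 for Hist4h4. On mean CPM in the mT6 controls, Hist3h2a (2146 annotated bases) was at 46.5, beside 56 for Hist1h2ai (393 bases). Hist3h2ba and Hist4h4 were at 9.55 and 25.4 CPM there. The 3 testis-type genes Hist1h1t, Hist1h2ba and Hist1h2aa had at most 10, 6 and 6 counts in any library and did not pass the count filter. The other 64 members were tested among 14473 genes. A member that passed the filter need not have been high in every group.

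The comparison with the most histone genes called was that of the lines, with more histone RNA in mT69a than in mT6. Summed levels in the controls were 4294 and 4342 CPM in mT6 and 7163 and 5395 CPM in mT69a, or 4318 ± 33.9 against 6279 ± 1250 (SD, n = 2 each). The mT6 knockouts had 3604 and 3716 CPM (3660 ± 79.2) and the mT69a knockouts 4850 and 6135 (5492 ± 909). The re-expression libraries had 4454 and 2965 CPM in mT6 (3710 ± 1053) and 5514 and 4762 in mT69a (5138 ± 532). All 6 mT69a libraries therefore lay above all 6 mT6 libraries on TMM-scaled CPM. The gap between the highest mT6 library and the lowest mT69a library, 4454 against 4762, was small beside the spread within groups. The lines overlapped without TMM factors. The share of counts was 0.487% in mT6 control replicate 1 and 0.4% in mT69a re-expression replicate 2. On CPM without mitochondrial genes these 2 libraries had 5579 and 4908.

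**Figure D1:**
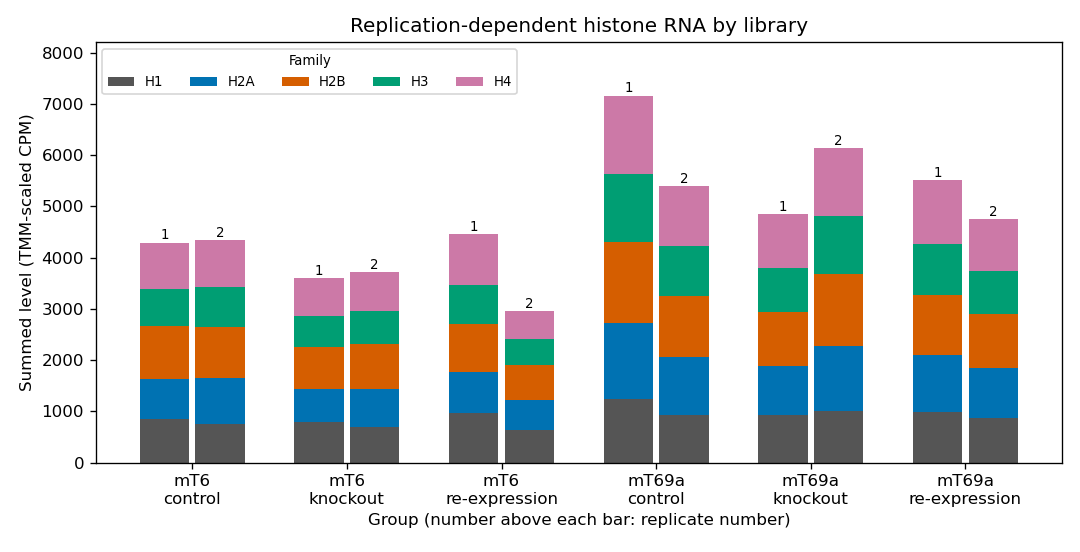
Bars stack the summed TMM-scaled CPM of the H1, H2A, H2B, H3 and H4 genes in each of the 12 libraries, with the replicate number above each bar. The mT69a bars reach 4762 to 7163 CPM and the mT6 bars 2965 to 4454 CPM.

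In the controls, 21 of the 64 tested members were higher in mT69a and 1 was lower (edgeR quasi-likelihood test, adjusted p below 0.05), where 13.4% of all 14473 genes were called higher and 14.7% lower. The median log2 fold change of the members was 0.57, with 60 of 64 positive, and the median of all genes was -0.03. Called higher were 9 of 17 H2A genes, 5 of 12 H3 genes, 3 of 13 H4 genes, 2 of 17 H2B genes and 2 of 5 H1 genes. The family medians were 0.69 for H2A, 0.65 for H3, 0.58 for H4, 0.44 for H2B and 0.42 for H1. The 2 control groups did not overlap, with mT69a higher, for 53 members, where this held for 31.2% of all genes.

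Hist1h2ag, an H2A gene at chr13:22042460-22042944, was at 35.6 and 33.1 CPM in the mT6 controls and 61.2 and 51.7 CPM in the mT69a controls, a log2 fold change of 0.72 (SE 0.18, edgeR adjusted p = 0.0125). The H2B gene Hist1h2bg, at chr13:23571396-23572013, was at 135 and 124 against 221 and 169 CPM, a change of 0.60 (SE 0.15, edgeR adjusted p = 0.0144). For the H4 gene Hist2h4, at chr3:96261682-96263311, the values were 21.4 and 24.1 against 48.6 and 37.5 CPM, a change of 0.92 (SE 0.25, edgeR adjusted p = 0.0208). Neither library of one line overlapped the other line for any of these 3 genes. Hist1h3g, Hist1h3d, Hist1h2ad, Hist1h2ap, Hist1h2ae, Hist2h2ac and Hist1h1b were also among the 10 higher members of smallest adjusted p, with log2 fold changes of 0.49 to 0.86. Of the 5 tested linker histone genes, Hist1h1d was also called, at 0.67 (SE 0.22, edgeR adjusted p = 0.0439), and Hist1h1a, Hist1h1c and Hist1h1e did not pass the threshold.

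The 1 member called lower was Hist2h2be, an H2B gene with a long 3′ end, at chr3:96221119-96223738. It was at 9.89 and 10.5 CPM in the mT6 controls and 6.87 and 7.06 CPM in the mT69a controls, a log2 fold change of -0.55 (SE 0.15, edgeR adjusted p = 0.0185). Its head-to-head partner Hist2h2ac, an H2A gene, went the other way, from 54.1 and 59.0 to 112 and 80.6 CPM, a change of 0.77 (SE 0.23, edgeR adjusted p = 0.0282). The 2 neighbours of the second stretch printed above thus changed in opposite directions between the controls. The other 3 members with negative values were also H2B genes and did not pass: Hist3h2ba at -0.18, Hist1h2bp at -0.02 and Hist1h2br at -0.65. Hist2h2be was called lower in the controls and not in the other conditions, where the difference between the lines was -0.04 in the knockouts (edgeR adjusted p = 0.864) and -0.07 in the re-expression libraries (0.823). The change of that difference from controls to knockouts was 0.51 (SE 0.21) and did not pass (edgeR adjusted p = 0.203).

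**Figure D2:**
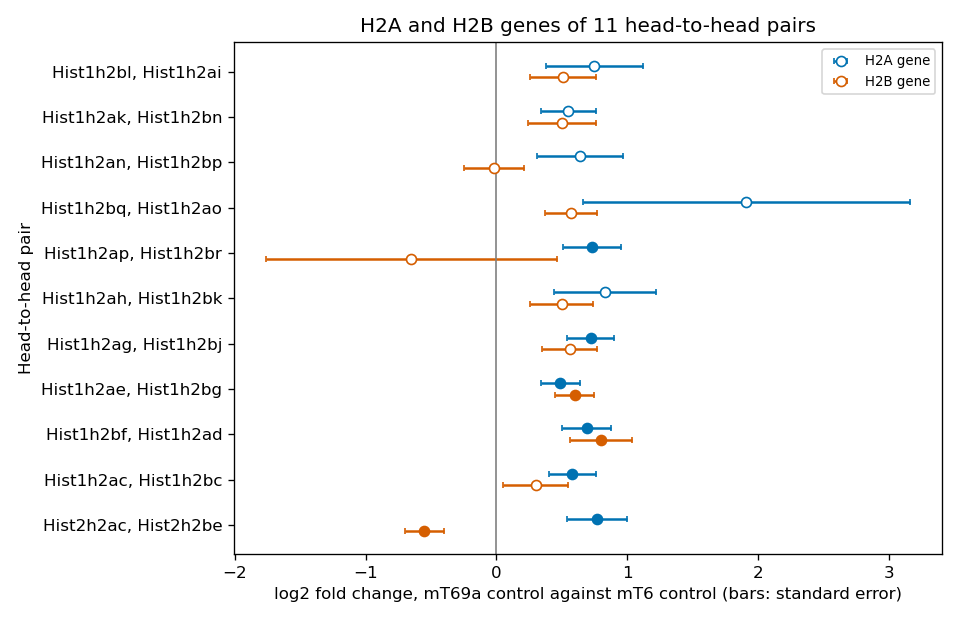
Points give the log2 fold change of mT69a over mT6 controls for the H2A (blue) and H2B (orange) gene of the 11 tested head-to-head pairs, with bars for the standard error and filled points for adjusted p below 0.05. In 8 of the 11 pairs both genes have the same sign, where all 17 tested H2A and 13 of 17 tested H2B genes are positive. In the Hist2h2ac and Hist2h2be pair the called values are 0.77 and -0.55.

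In the head-to-head pairs, both genes had the same sign in 8 of the 11 tested. All 17 tested H2A genes and 13 of the 17 tested H2B genes were positive, so most pairings would share a sign. This count therefore does not show that neighbours changed together. Of the 3 exceptions, Hist1h2br with Hist1h2ap had a standard error of 1.11 for Hist1h2br, and Hist1h2bp with Hist1h2an a value of -0.02 for Hist1h2bp. Hist1h2ae and Hist1h2bg, on either side of the first stretch, had 0.49 and 0.60, and both were called.

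The number of calls between the controls rested on single libraries. Without mT69a control replicate 1 none of the 22 members was still called, Hist2h2be included, and the median fell to 0.36. The 1 call then left, lower, was Hist1h2br, whose coding sequence is identical to that of Hist1h2bq. Without mT6 control replicate 2 the count was 1, Hist1h3g, and without mT6 control replicate 1 it was 3, Hist1h2ad, Hist1h2ag and Hist1h2bg, with medians of 0.56 and 0.53. Without mT6 re-expression replicate 1 or 2, which enter the estimate of the spread, it was 35 or 36. A test on log2(TPM + 1) called 1 member, with a median of 0.56, and keeping genes with low counts gave 42.

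The same comparison of lines in the other conditions, added after the data had been seen, gave 24 members higher and 0 lower in the knockouts (12.6% of all genes were higher) and 7 higher and 0 lower in the re-expression libraries (8.57%). With the replicate block the latter was 15, where 30.3% of all genes were called in either direction. Both counts depended on single libraries. Few members were called in the knockouts without mT69a knockout replicate 2 or without mT6 knockout replicate 1. The same held for the re-expression libraries without mT69a re-expression replicate 2. Averaged over the 3 conditions, 54 of the 64 were higher in mT69a and 0 were lower (edgeR, adjusted p below 0.05), where 22.5% of all genes were higher. The median was 0.58. Leaving out any 1 library gave 49 to 59 higher and 0 lower. For 24 of the 64, all 6 mT69a libraries lay above all 6 mT6 libraries, where this held for 8.23% of all genes.

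Hist2h4 had the highest called value of the average, 1.04 (SE 0.15, edgeR adjusted p = 0.000288), and was at 12.3 to 24.1 CPM in the mT6 libraries and 30.4 to 48.6 CPM in the mT69a libraries. Hist4h4, an H4 gene outside the large clusters, was at 0.84, as was Hist1h2ai (for Hist4h4, SE 0.12, edgeR adjusted p = 0.000265). Hist4h4 was at 25.9 and 24.9 CPM in the mT6 controls, 17.6 and 19.6 in the mT6 knockouts and 24.5 and 19.7 with the vector, against 45.0 and 33.1, 33.0 and 44.8, and 43.7 and 35.2 CPM in mT69a. Every mT69a library was above every mT6 library for both Hist2h4 and Hist4h4. Called by family were 15 of 17 H2A, 14 of 17 H2B, 11 of 12 H3, 12 of 13 H4 and 2 of 5 H1 genes. The difference was thus present in the Hist1 cluster (44 of 51), the Hist2 cluster (7 of 10) and the small clusters, where Hist3h2a changed by 0.67 and Hist3h2ba by 0.64. Of the 6 genes with AATAAA and no stem-loop match, 3 were called, and the median of the 6 was 0.42. Hist2h2be (-0.22) and Hist1h2bc (0.19), H2B genes of that kind, did not pass (edgeR adjusted p = 0.0607 and 0.307). Hist1h2bq and Hist1h2br, also H2B genes of that kind, had values of 0.46 and 1.64. Each of them also has an annotated transcript that ends at the stop codon, in which no stem-loop could be found. The 12 tested genes with both the stem-loop and AATAAA, for Hist1h2bp in different transcripts, had a median of 0.56, with 10 called. With the replicate block Hist2h2be passed as lower in mT69a (edgeR adjusted p = 0.0468).

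**Figure D3:**
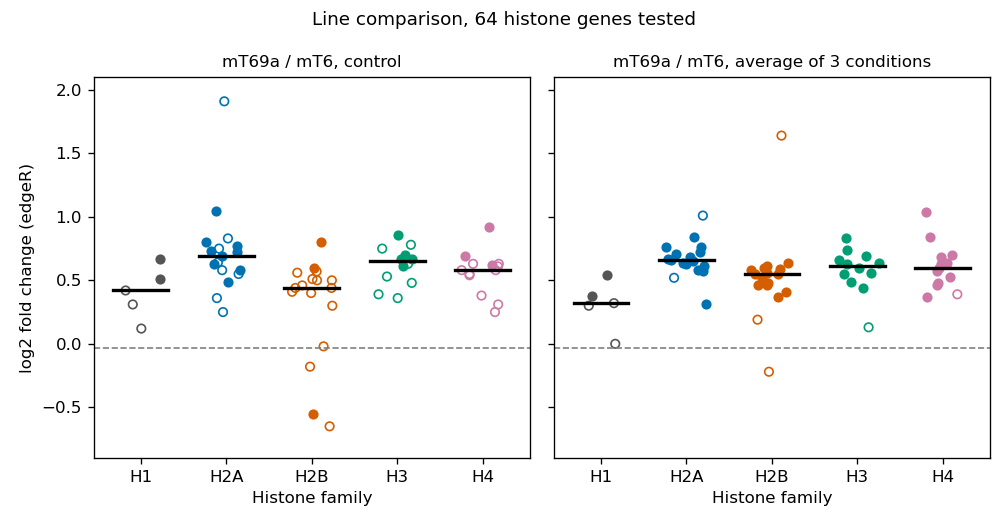
Each point is 1 tested histone gene, placed by family, with its log2 fold change of mT69a over mT6 in the controls (left) and averaged over the 3 conditions (right). Filled points passed adjusted p below 0.05, black bars are family medians and the dashed line is the median of all genes, and 21 points are filled above 0 on the left and 54 on the right.

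Genes next to the clusters had medians at or below 0. The 19 tested non-histone genes within 500 kb of the Hist1 cluster had a median of -0.22 in the controls, and the 43 near the Hist2 cluster had -0.04. All tested non-histone genes of chromosomes 13 and 3, these neighbours included, had medians of 0.04 (566 genes) and -0.00 (788 genes).

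Genes tied to the cell cycle were counted in the same comparison of controls, where 13.4% of all genes were called higher and 14.7% lower. Of 48 genes for S phase and DNA replication 13 were higher and 1 was lower, with a median of 0.29, and of 30 genes for G2 and mitosis 16 were higher and 0 lower, with a median of 0.39, against -0.03 for all genes. Rrm2, a subunit of ribonucleotide reductase, was 2.68-fold higher (edgeR adjusted p = 0.000217). The log2 fold change was 0.86 for E2f2, an E2F transcription factor (edgeR adjusted p = 0.00375), and 0.63 for Tyms, thymidylate synthase (0.00445). Pcna, the replication clamp, had 0.33 and did not pass (edgeR adjusted p = 0.0633), and Mki67, a proliferation marker, had 0.31 (0.403). Averaged over the 3 conditions, 30 of the 48 S phase genes were higher and 2 lower (median 0.31), where 22.5% of all genes were higher. Of the 30 genes for G2 and mitosis, 24 were higher and 1 was lower there (median 0.36). The part of these lists in the histone difference was not tested.

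Genes that make and process histone mRNA had a median of 0.00, with 2 of 27 higher and 4 lower, beside the same 13.4% and 14.7% of all genes. Npat, the activator of histone gene transcription, was higher by 0.48 (SE 0.13, edgeR adjusted p = 0.0172), at 33.9 and 31.7 CPM in the mT6 controls and 44.9 and 46.6 CPM in the mT69a controls. Ncbp1, a subunit of the nuclear cap-binding complex, was higher by 0.49 (0.0306). Lower were Tut4, a terminal uridylyltransferase, by -0.94 (0.0032), Cstf2t and Cstf2, cleavage stimulation factor subunits, by -0.78 (0.00582) and -0.56 (0.0198), and Eri1, an exonuclease that acts on histone mRNA ends, by -0.47 (0.0202). Slbp, which binds the stem-loop, had -0.10 (SE 0.12, edgeR adjusted p = 0.568), and Casp8ap2, a component of the histone locus body, had -0.17 (0.511).

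Of 11 tested histone genes listed here as replication-independent, 2 were higher and 1 lower in the mT69a controls (13.4% and 14.7% of all genes). Such genes are in general, but not in every case, expressed through the cell cycle. H1f0, a linker histone of resting and differentiated cells, was at 193 and 195 CPM in mT6 and 385 and 355 CPM in mT69a, a change of 0.93 (SE 0.12, edgeR adjusted p = 0.000282). H2afx, which encodes the variant phosphorylated at DNA breaks, changed by 0.61 (0.0347). H3f3a, one of the genes for H3.3, was lower by -0.78 (0.00152), while H3f3b, the other, had 0.31 (0.137). H2afz had 0.32 (0.1). Among 30 histone chaperone genes 4 were higher and 3 lower, shares near those of all genes or below them, with Nap1l1 at 0.75 (0.00335), Hjurp at -0.86 (0.000313) and Daxx at -0.84 (0.00528).

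No histone gene passed the threshold in the Spdef knockouts, where most members had small negative values. Averaged over the lines, 0 of 64 members were called in the knockout against control (edgeR, 5.6% of all genes were called), and 5 had an unadjusted p below 0.05, as had 18.9% of all genes. DESeq2 also called 0. The median log2 fold change was -0.23, with 59 of 64 negative, and the median of all genes was 0.00. Family medians were -0.13 for H1, -0.27 for H2A, -0.23 for H2B, -0.25 for H3 and -0.23 for H4. With the replicate number as a block 1 member was called, where 15% of all genes were: Hist1h2bg, at -0.32 (edgeR adjusted p = 0.0312 with the block, 0.114 without). It was at 135 and 124 CPM in the mT6 controls and 97.1 and 106 in the mT6 knockouts, and at 221 and 169 in the mT69a controls and 146 and 169 in the mT69a knockouts.

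In each line the libraries of knockout and control were also compared by rank. In mT6, 46 members were lower in both knockout libraries than in both controls and 1 was higher in both, where 21.7% and 21.3% of all genes were. In mT69a this held for 2 lower and 2 higher, where 24.6% and 24.0% of all genes were. The medians were -0.27 in mT6 and -0.18 in mT69a, and 0 members were called in either line (edgeR; 3.23% and 8.6% of all genes were). At an unadjusted p below 0.05 there were 6 in mT6 and 0 in mT69a, where 16.9% and 19.5% of all genes were. The difference between the lines had a median of 0.09 with 0 called, 6.62% of all genes being called, and 3 members were at an unadjusted p below 0.05, where 19.6% of all genes were. Taken by replicate number, the summed level in mT69a was lower in knockout than control for number 1 (4850 against 7163 CPM) and higher for number 2 (6135 against 5395), and in mT6 it was lower for both. Without mT69a control replicate 1 the median over both lines was -0.12, and 1 member was called, higher: Hist1h2br.

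Hist3h2ba, at chr11:58948920-58949533, held the lowest value in mT6, at 8.61 and 10.5 CPM in the controls and 4.95 and 5.51 CPM in the knockouts. Its log2 fold change was -0.87 (SE 0.26), past the threshold with the replicate block (edgeR adjusted p = 0.0384, 12.5% of all genes being called) and not without it (0.116). In mT69a it was at 10.3 and 6.66 CPM in the controls and 8.20 and 12.9 CPM in the knockouts, with overlap and a value of 0.31 (0.61). The difference between the lines, 1.18 (SE 0.37), did not pass (edgeR adjusted p = 0.0956), and passed with the block (0.0396), where 15.2% of all genes did. Hist1h2ao had the highest value of the average, 0.98, with a standard error of 0.85 and counts between 0 and 120.

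No histone gene passed the threshold between the libraries labelled re-expression and the knockouts. In mT6 the summed level was 4454 CPM in re-expression replicate 1, above both controls (4294 and 4342), and 2965 CPM in replicate 2, below both knockouts (3604 and 3716). In mT69a it was 5514 and 4762 CPM, against 4850 and 6135 CPM in the knockouts. The difference of the mean log2 summed levels, re-expression minus knockout, was -0.01 in mT6 and -0.09 in mT69a, and the latter was -0.27 on summed TPM and -0.35 on CPM without mitochondrial genes. Against the knockout, averaged over the lines, 0 of 64 members were called (edgeR, 7.77% of all genes were), with 4 at an unadjusted p below 0.05, where 19.6% of all genes were, and 0 called by DESeq2. The median was -0.06, against -0.02 for all genes. In mT6 the median was 0.02 and in mT69a -0.12, with 0 called in each line (2.69% and 4.25% of all genes were called) and 0 for the difference between them (0.0138%). At an unadjusted p below 0.05 there were 2 members in each line and 2 for the difference, where 12.7%, 15.3% and 4.92% of all genes were. DESeq2 called 1 in mT6. With the replicate block 1 member was called on average, Hist3h2ba, at -0.62 (edgeR adjusted p = 0.049), and 1 in mT69a, Hist1h2ad, at -0.52 (0.0374), where 15.8% and 10.6% of all genes were.

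Against the controls, which the knockout comparison also uses, 3 members were lower and 0 higher on average (edgeR; 6.41% of all genes were lower). All 3 were H2B genes. The median over the 64 was -0.30, with 60 negative, and -0.02 over all genes. Hist3h2ba went from 8.61 and 10.5 CPM to 3.39 and 3.16 CPM in mT6 and from 10.3 and 6.66 to 6.89 and 7.10 CPM in mT69a, a change of -0.91 (SE 0.20, edgeR adjusted p = 0.0114). The groups overlapped in mT69a and not in mT6. Hist1h2bp, at chr13:21787461-21789213, went from 11 and 7.99 to 4.78 and 4.57 CPM in mT6 and from 9.59 and 8.97 to 7.95 and 8.50 CPM in mT69a, a change of -0.59 (SE 0.17, edgeR adjusted p = 0.0441). Hist1h2bg went from 135 and 124 to 104 and 96.6 CPM in mT6 and from 221 and 169 to 154 and 140 CPM in mT69a, a change of -0.38 (SE 0.11, edgeR adjusted p = 0.0374). Neither of these 2 genes overlapped between the groups in either line.

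With the replicate block 9 members were called against control, all lower, where 25.4% of all genes were called: the same 3 with Hist1h1b, Hist1h2ae, Hist1h2ag, Hist1h2ad, Hist1h2bl and Hist1h2bh, at -0.29 to -0.56. The count depended on single libraries: it was 13 without mT6 re-expression replicate 1, with a median of -0.47, and 5 without mT69a control replicate 2. It was 1 without either control numbered 1, either mT6 knockout, either mT69a re-expression library or mT6 re-expression replicate 2. It was 2 without mT6 control replicate 2. Keeping genes with low counts gave 22 lower and 1 higher. In mT6, 28 members lay lower in both re-expression libraries than in both controls (23.5% of all genes did), and in mT69a 26 (27.4%).

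**Figure D4:**
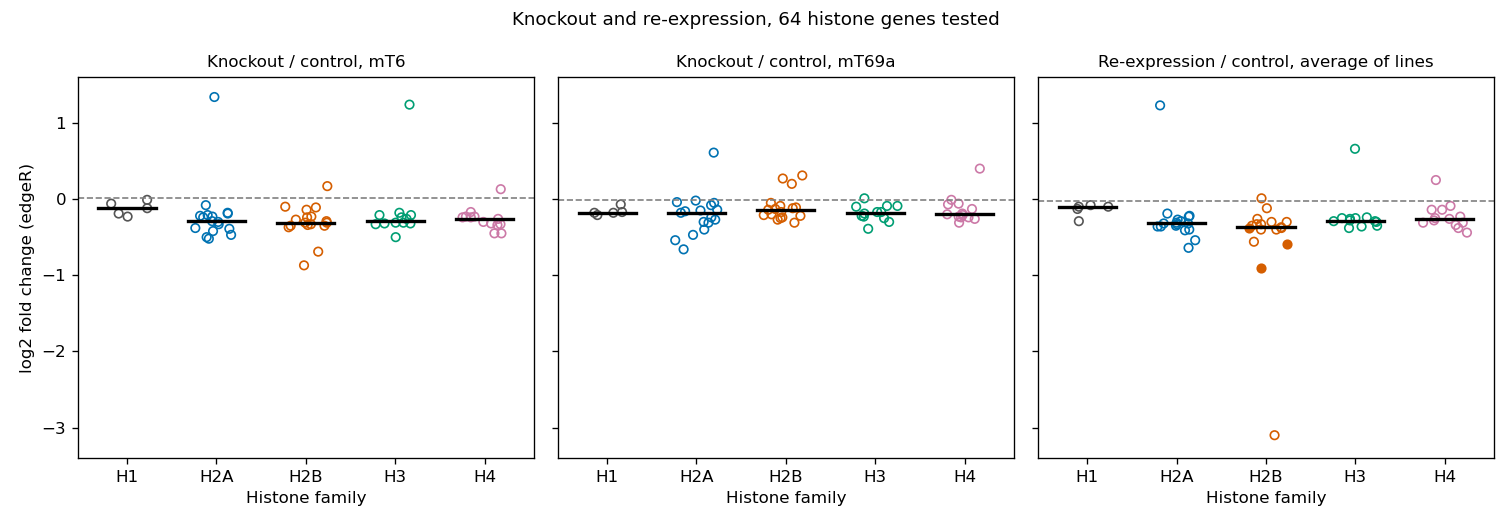
Each point is 1 tested histone gene with its log2 fold change of knockout over control in mT6, in mT69a, and of re-expression over control averaged over the lines. Filled points passed adjusted p below 0.05, black bars are family medians and the dashed line is the median of all genes, and the 3 filled points are the H2B genes Hist3h2ba, Hist1h2bp and Hist1h2bg in the last panel.

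**Figure D5:**
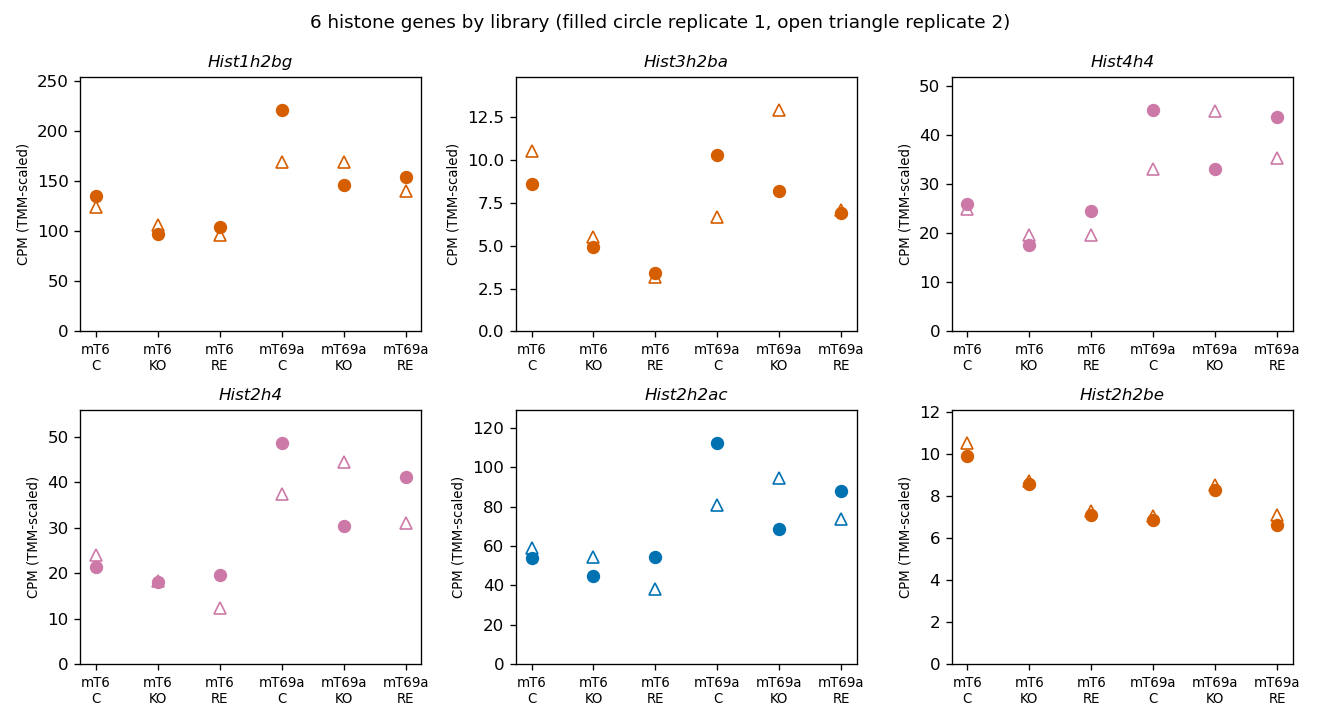
TMM-scaled CPM of 6 histone genes in the control (C), knockout (KO) and re-expression (RE) libraries of each line, with filled circles for replicate 1 and open triangles for replicate 2. Hist4h4 and Hist2h4 are higher in every mT69a library than in any mT6 library, Hist3h2ba is lowest in the mT6 re-expression libraries at 3.39 and 3.16 CPM, and Hist2h2be is highest in the mT6 controls at 9.89 and 10.5 CPM.

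In the knockout against control on average, 3.3% of all genes were called higher and 2.3% lower. Among S phase genes 1 of 48 was lower on average, Pole2, a DNA polymerase epsilon subunit, at -0.46 (SE 0.10, edgeR adjusted p = 0.0199). Among G2 and mitosis genes Cenpe and Anln were higher, 2 of 30, at 0.59 (0.00608) and 0.49 (0.00795). None of the 27 genes for histone mRNA, the 11 replication-independent histones or the 30 chaperones passed. Slbp had -0.00 (0.998), Npat 0.11 (0.595) and Casp8ap2 0.14 (0.636). For re-expression against control 8 of 48 S phase genes were lower and 2 higher, where 6.41% and 8.04% of all genes were, among them Pola2 at -0.60 (0.00212), E2f2 at -0.79 (0.00192) and the cyclin-dependent kinase Cdk2 at 0.49 (0.00418). The median of that list was -0.09. H2afj, a replication-independent H2A gene, was higher by 0.74 (0.00142) and H1f0 by 0.41 (0.0074), H3f3a was lower by -0.42 (0.0111), and 2 chaperones, Anp32a and Chaf1a, were lower. Their part in the histone values was not tested.

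Between the replicate numbers, 3 members were lower in number 2 and 0 were higher (edgeR, additive model of group and number; 13.5% of all genes were lower). These were the H4 gene Hist1h4i at -0.48 (SE 0.09, edgeR adjusted p = 0.00473) and the H1 genes Hist1h1c at -0.34 (0.0142) and Hist1h1d at -0.28 (0.0244). Hist1h4i was lower in number 2 in all 6 groups, for instance at 29.5 and 14.1 CPM in mT6 re-expression and 32.8 and 26.1 CPM in the mT69a knockouts. The median was -0.09, against -0.02 for all genes, and 0.64 for the 15 mitochondrially encoded genes, of which 11 were higher in number 2. Of 15 other tested RNAs without a poly(A) tail, 3 were higher in number 2, where 12.6% of all genes were. Counts ran from 1, without mT6 knockout replicate 2, to 10 without either mT69a knockout library, and were 2 without any 1 of 7 other libraries.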

How the data were processed

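The TruSeq Stranded Total RNA kit was used on DNase-treated RNA from Trizol extracts, per the labels. Per the submitters' processing notes, FastQC 0.11.8, STAR 2.5.2b, RSEM 1.3.0 and GRCm38.p6 were used. The authors deposited expected counts and TPM per gene and per transcript. Expected counts were rounded to whole numbers here, scaled by TMM and tested in edgeR 4.0.16 (quasi-likelihood, robust, filterByExpr by group, 6 group means, 6 residual degrees of freedom, 14473 genes, two-sided, Benjamini-Hochberg adjusted p, threshold 0.05). The biological coefficient of variation was 19.2%. Depth limits the precision, and p-values come from 2 libraries per group. Of 53715 identifiers 53620 matched a GENCODE M21 symbol without regard to version, and the 95 others held 0.0109% of counts.

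The main tests did not use the replicate numbers. The differences between numbers 1 and 2 correlated above 0.1 in 15 of 15 pairs of groups (0.205 to 0.531), so a fit with the number as a block is given beside a result where it changes the call. Alternatives were that replicate block, DESeq2 1.42.0, RLE size factors, no count filter, at least 10 CPM in 2 libraries, limma 3.58.1 on log2(TPM + 1) and leaving out each library. R 4.3.3, the data.table package (version 1.17.8), Python 3.11.15, pandas 2.3.3, numpy 2.4.6 and matplotlib 3.10.9 were used, and the tests were tried on simulated data. There the limma test on log2(TPM + 1) made many false calls where abundant genes were among those changed, and few where they were not, while edgeR made few in both cases.

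The members and the gene lists (histone mRNA expression and processing, replication-independent histones, chaperones, S phase, G2 and mitosis, other RNAs without a poly(A) tail, mitochondrial genes, and epithelial, fibroblast, immune and endothelial markers) were chosen with earlier results of these data known. A few list symbols were corrected to the annotation after the files were seen. Named are the 3 members of highest mean TPM per family, up to 10 called members per direction and comparison, the Hist3 and Hist4 genes, up to 3 called genes per list, and Spdef, Slbp, Npat, Casp8ap2, Pcna, Mki67, H2afx, H2afz, H3f3a, H3f3b and H1f0. Other genes named were chosen after their values were seen. Head-to-head pairs, promoters, sequence classes and the line comparisons outside the controls were added after the data had been seen.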

Additional observations from a re-analysis of the deposited data

How the results depend on the processing

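Counts of called histone genes depended on the settings. With the replicate block they were 1 in the knockout comparison averaged over lines, 1 in mT6, 1 for the difference between lines, 1 in re-expression against knockout on average, 1 in mT69a, 9 in re-expression against control, and 15 between the lines in the re-expression libraries (7 without it), and the block moved no other count of calls by over 1.5 times. With no count filter they were 3, 2 and 1 for the knockout on average, in mT6 and for the difference between lines, 3, 1 and 1 for re-expression against knockout on average, in mT6 and for the difference between lines, 23 for re-expression against control, 42 for the line controls and 5 for the replicate numbers. DESeq2 gave 5 for re-expression against control, 1 for re-expression against knockout in mT6 and 5 for the replicate numbers, and the stricter filter gave 5 for re-expression against control. On log2(TPM + 1), which has no scaling for composition and made many false calls on simulated data with abundant genes changed, there was 1 call for re-expression against control, 1 for the line controls and 36 lower for the replicate numbers, where the median of all genes was -0.21. On that scale Hist1h2ag turned to -0.23 between the replicate numbers (limma adjusted p = 0.0363). With the other conditions in place of the controls, 7 (re-expression) and 54 (average) members were called between the lines. The count of 7 was lower without mT69a re-expression replicate 2.

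Leaving out 1 library gave 1 to 36 calls for the line controls, 1 to 13 for re-expression against control, 1 to 10 for the replicate numbers, and 0 to 1 for the knockout on average, the knockout in mT69a, the difference between lines in the knockout, and re-expression against knockout on average and in mT6. The summed level of knockout over control (difference of mean log2 values) was -0.24 in mT6, -0.27 on summed TPM and -0.28 without mitochondrial genes, and in mT69a -0.19, -0.10 and -0.12. Re-expression over knockout was -0.01, -0.05 and -0.04 in mT6 and -0.09, -0.27 and -0.35 in mT69a, and the line controls differed by 0.53, 0.56 and 0.54. The causes of these changes were not tested, beyond the fewer samples left where a library was dropped. Near-identical copies and 2 libraries per group limit what single genes can show.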
